A study of Mus musculus with 6 samples.

Results

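Regions of open chromatin that gained at least 3-fold in mouse lung endothelial cells without cystathionine gamma-lyase (CSE, gene Cth) are described here. A region was taken when its mean over the 3 CSE-KO libraries plus 1, divided by its mean over the 3 WT libraries plus 1, was at least 3. In addition the smallest CSE-KO value had to lie above the largest WT value, the mean of the 6 libraries had to be at least 20, and the region had to lie on an autosome. These criteria took 684 of 58172 regions, or 1.44% of the 47573 autosomal regions with a mean of at least 20, which are called eligible below. The mirrored criteria took 753 lost regions (1.58%), which serve as the comparison. The gained regions were chosen by their values in these 6 libraries, so their levels and folds are descriptions without a test. Of the eligible regions, 21.5% had all CSE-KO values above all WT values and 21.9% had all of them below, whatever the fold.

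The assay was ATAC-seq, in which the transposase Tn5 cuts and tags accessible DNA. The WT group is Cre-negative and the CSE-KO group Cre-positive, with 3 libraries each and 50000 cells per library. All 6 libraries come from endothelial cells isolated from mouse lung. Neither the Cre driver nor the allele, age or pooling of the mice is given in the sources used here, and Cre itself and loss of the enzyme cannot be told apart. Nothing in the labels says that the libraries of a group came from separate animals, so a p-value here covers the spread among these libraries alone. The promoter of Cth had values of 195, 157 and 167 in WT against 11, 6 and 2 in CSE-KO, so no library went against its label.

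Accessible regions are stretches of DNA that nucleosomes do not cover, and most mark promoters, which lie at the start of genes, or enhancers, which can lie far from the gene they act on. CSE makes cysteine from cystathionine and is a source of hydrogen sulfide in endothelium. Cysteine feeds the synthesis of glutathione, the main thiol antioxidant of the cell. Heat-shock chaperones refold damaged proteins, and ferritin and metallothionein bind metals. These families were listed beside endothelial genes when the regions were read by gene, with earlier results of these data known.

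The deposited values summed to 5242490 to 5368491 in WT and to 5437296 to 5547417 in CSE-KO. They are whole numbers that look scaled and then rounded. In the CSE-KO columns 35 to 39 of the whole numbers up to 100 never occur, which puts the worth of 1 read at 1.54 to 1.64, whereas no whole number is missing in WT. The median gained region, at 63 to 67 in the CSE-KO libraries, thus rests on about 40.3 to 41 reads a library, with a counting error near 15.6% to 15.8%. The lowest value of any gained region in each CSE-KO library (16 to 20) rests on 9.76 to 12.2 reads. Of 12 endothelial marker genes 10 had a region, and their 11 promoter regions had means of 35 to 277 in WT and 33 to 293 in CSE-KO and summed to 1335 to 1432 and 1488 to 1719 per library. Promoter regions of mural and fibroblast markers (3 regions, with 8 of 14 genes having any region) summed to 154 to 159 in WT and 228 to 263 in CSE-KO, and those of leukocyte markers (2 regions, 7 of 14 genes) to 247 to 284 and 175 to 186. Epithelial and mesothelial markers (5 promoter regions, 9 of 14 genes) summed to 252 to 278 and 283 to 314. None of the 75, 25, 7 and 27 regions of the endothelial, mural, leukocyte and epithelial marker lists was gained, and the part of other cell types in the gains was not tested.

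Few gained regions lay on a start site, and the sequence at those that did is shown here to let a reader see what kind of promoter they are. RefSeq promoter windows (GRCm38.p6, the same primary chromosomes as mm10) overlapped 12 gained regions with 13 windows. The 250 bases before the start are printed 5′ to 3′ for the 6 windows of highest fold and for Mt2, which was added after its values were seen. Capitals mark AP-1 sites (TGANTCA, or its reverse complement) and GC boxes (GGGCGG or its reverse complement).
4931408C20Rik: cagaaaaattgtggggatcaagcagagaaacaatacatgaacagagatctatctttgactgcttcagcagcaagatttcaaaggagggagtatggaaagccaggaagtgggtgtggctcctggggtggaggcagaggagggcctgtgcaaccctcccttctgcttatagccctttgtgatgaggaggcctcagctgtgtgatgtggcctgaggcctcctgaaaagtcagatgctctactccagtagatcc
Stx1a: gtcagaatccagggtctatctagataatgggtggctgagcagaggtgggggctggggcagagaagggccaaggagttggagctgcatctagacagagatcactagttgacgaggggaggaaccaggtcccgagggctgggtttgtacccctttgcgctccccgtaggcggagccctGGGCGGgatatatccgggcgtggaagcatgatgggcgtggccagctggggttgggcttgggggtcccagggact
Gm13415: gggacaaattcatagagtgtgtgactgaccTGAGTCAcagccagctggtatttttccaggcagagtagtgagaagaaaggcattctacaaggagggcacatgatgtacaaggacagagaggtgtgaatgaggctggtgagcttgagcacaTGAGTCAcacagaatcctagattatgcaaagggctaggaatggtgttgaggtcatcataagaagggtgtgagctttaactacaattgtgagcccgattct
Ptprn: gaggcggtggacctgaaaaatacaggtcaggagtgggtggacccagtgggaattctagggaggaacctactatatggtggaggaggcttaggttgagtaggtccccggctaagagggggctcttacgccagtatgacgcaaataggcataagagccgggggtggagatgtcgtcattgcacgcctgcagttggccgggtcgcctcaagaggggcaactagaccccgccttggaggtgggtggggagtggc
Ahrr: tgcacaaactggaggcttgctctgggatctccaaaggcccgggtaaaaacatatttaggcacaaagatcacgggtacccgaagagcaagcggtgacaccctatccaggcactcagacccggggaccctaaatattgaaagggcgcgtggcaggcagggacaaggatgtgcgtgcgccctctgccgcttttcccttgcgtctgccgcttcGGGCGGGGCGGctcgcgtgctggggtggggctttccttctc
Ifi205: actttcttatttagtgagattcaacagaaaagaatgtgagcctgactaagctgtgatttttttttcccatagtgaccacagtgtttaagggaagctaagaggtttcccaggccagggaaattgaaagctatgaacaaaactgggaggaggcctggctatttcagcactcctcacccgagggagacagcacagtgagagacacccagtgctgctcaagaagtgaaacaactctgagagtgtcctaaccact
Mt2: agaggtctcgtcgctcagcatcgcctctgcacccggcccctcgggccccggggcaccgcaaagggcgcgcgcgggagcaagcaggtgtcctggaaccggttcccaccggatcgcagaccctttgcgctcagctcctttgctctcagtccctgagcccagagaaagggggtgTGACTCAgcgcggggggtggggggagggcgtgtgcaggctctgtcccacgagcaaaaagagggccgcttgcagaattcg
They lie at chr1:26687461-26687710 on the minus strand (4931408C20Rik), chr5:135023232-135023481 on the plus strand (Stx1a), chr2:24440143-24440392 plus (Gm13415), chr1:75264209-75264458 minus (Ptprn), chr13:74292332-74292581 minus (Ahrr), chr1:174031756-174032005 minus (Ifi205) and chr8:94172368-94172617 plus (Mt2). The gained regions cover all 250 of the printed bases of Gm13415 and Mt2, 176 of Ifi205, 159 of Ptprn, 126 of Stx1a and 46 of 4931408C20Rik. The Ahrr region lies downstream of the start and holds none of them. The region at 4931408C20Rik had 1, 0 and 3 in WT against 59, 51 and 92 in CSE-KO (29.3-fold), that at Stx1a, a syntaxin gene, had 23, 17 and 27 against 126, 112 and 107, and that at Gm13415 had 32, 31 and 24 against 114, 103 and 156. The first was nearly closed in WT, and the other two were weak there.

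The promoters under gained regions held few CG dinucleotides. Over the 13 windows the median was 2 (range 0 to 32) against 17 in the 12563 windows under eligible regions and 5.5 in the 20 under lost regions. Their GC content had a median of 52.8%, against 61.6% and 51.2%. A GC box occurred in 2 of the 13 (15.4%), against 61.8% of the windows under eligible regions and 32.7% of all 32851 windows. An AP-1 site occurred in 3 (Gm13415, where it stands at 2 places, Mt2 and Gm30695), or 23.1%, against 4.45% and 6.75%. The heat-shock element GAANNTTC occurred in 0 of 13 against 4.87% of the windows under eligible regions. The letters TGACGTCA and TATAAA also occurred in none, against 2.89% and 5.45%, and CCAAT in 1, against 35.2%. All motifs were read on both strands, and a match describes letters, not binding. With 13 windows, 1 window moves such a share by 7.69 percentage points. The windows were not matched on level. Among eligible regions, 7.7% were promoters at a mean of 20 to 30 and 50.1% from 100 up, so their windows lie mostly under stronger regions. A run of 30 bases shared with the promoter window of another gene was found in 4 of the 13 (30.8%), 4931408C20Rik and Ifi205 among them, against 24.3% under eligible regions. Gm33398 and Gm33323 also count, but their windows, read with the 50 bases after the start, overlap in place over the same gained region. There the same DNA was counted for both. Such overlaps were not left out under eligible regions either, so the shares do not measure copied sequence alone.

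The gained regions were weak in WT and reached ordinary levels in CSE-KO. Their median value was 15, 15 and 14 in the WT libraries and 67, 63 and 66 in the CSE-KO libraries. Eligible regions as a whole had median group means of 66.3 in WT and 66 in CSE-KO, so the median gained region stood at the level of the typical eligible region in CSE-KO. The WT mean was under 10 in 168 gained regions (24.6%), 10 to 20 in 291 (42.5%), 20 to 50 in 187 (27.3%) and at least 50 in 38 (5.56%). Of all 169 eligible regions with a WT mean under 10, 168 were gained, which follows largely from the required mean of 20. In each WT library 2 gained regions were at 0. The median coefficient of variation within a group was 24.9% in WT and 20.2% in CSE-KO, and no library was the highest of its group in most of the regions.

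**Figure D1:**
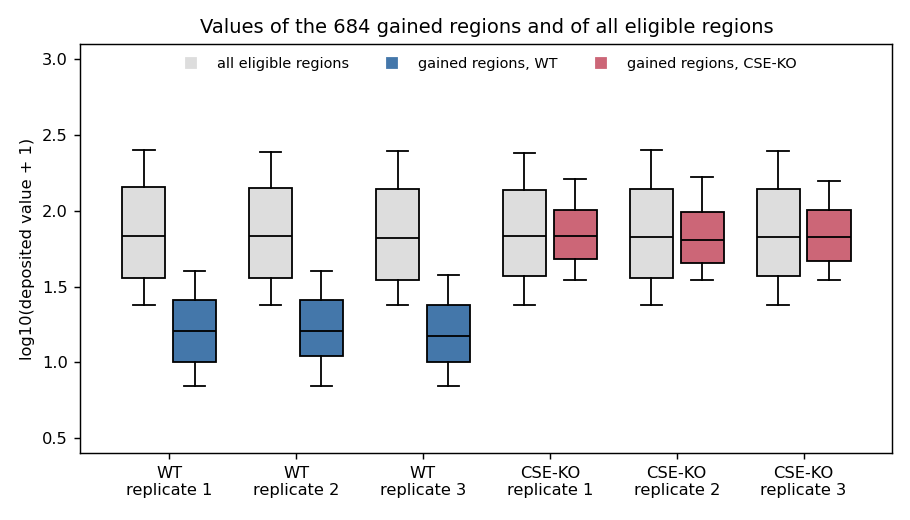
Deposited values on a log10(value + 1) axis for each of the 6 libraries, with all 47573 eligible regions in grey and the 684 gained regions in blue (WT) or red (CSE-KO). Boxes span the interquartile range with the median as a line, and whiskers reach from the 10th to the 90th percentile. The gained regions sit well below the eligible regions in each WT library and overlap them in each CSE-KO library.

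The criteria required the groups to be apart, so the size of the gap is described without a test. The smallest CSE-KO value was at least 2 times the largest WT value in 580 of 684 (84.8%), with a median ratio of 2.66. The fold was 3 to 4 in 381 regions (55.7%), 4 to 6 in 175 (25.6%), 6 to 10 in 68 (9.94%) and at least 10 in 60 (8.77%). The 60 regions of at least 10-fold had a median mean of 6 in WT and 127 in CSE-KO. The last 2 regions inside the limit were on chromosome 1 from 10872383 to 10872647, with 10, 18 and 21 in WT against 39, 47 and 67 in CSE-KO, and 56.8 kb from the start of Tmem252, with 17, 27 and 19 against 60, 84 and 51. The 2 next outside it, at a fold of 2.99, were a region near Cldn16 with 40, 42 and 38 against 105, 121 and 139, and a region on chromosome 18 with 38, 29 and 34 against 113, 110 and 85.

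The criteria were also applied to 2 WT and 2 CSE-KO libraries at a time, and the left-out pair was then read. Over the 9 choices this took 674 to 801 regions. The left-out CSE-KO library lay above the left-out WT library in 96.5% to 98.7% of them, against 49% to 50.7% of eligible regions. The median ratio of the left-out pair was 3.17 to 3.78, against 1 to 1.01, and it was at least 3 in 55.1% to 66.6%, against 1.85% to 2.4%. The direction thus held in the left-out libraries for nearly all regions chosen, and the 3-fold limit for fewer. The left-out libraries belong to the same 2 groups and are no independent experiment.

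The gained regions held 1.11% ± 0.157 of all values in the WT libraries and 6.96% ± 0.114 in the CSE-KO libraries (SD, n = 3 each). Most of this lay in the only 6 regions with a value over 10000, all of them gained. Without them, the other 678 held 0.295% ± 0.0105 in WT and 1.45% ± 0.0217 in CSE-KO. The largest values were at Gm10800 on chromosome 2, a predicted gene, with 18236, 13987 and 10707 in WT against 91528, 91979 and 98578 in CSE-KO. Gm10801 on the same chromosome had 3900, 2907 and 2187 against 22929, 22591 and 22169. Gm21738 on chromosome 14 had 7368, 5194 and 3886 against 53556, 53907 and 56578. WT replicate 1 was the highest WT library at all 3, and relative to their mean the CSE-KO libraries lay closer together than the WT libraries. The broadest gained region, 38189 bp at the start of chromosome 9 over Gm10719, had 6004, 4453 and 3103 against 45173, 47692 and 50390. The region on chromosome 9 nearest to Rpusd4, 37.5 kb away, had 2058, 1569 and 1200 against 13191, 13343 and 13197. A pair of regions on chromosome 17 carried deposited lncRNA and rRNA labels. The first (39843032 to 39846317) had 13979, 14593 and 13727 against 68484, 73525 and 72083, and the second (39848248 to 39848786) had 1430, 1445 and 1420 against 7640, 8123 and 8076. The deposited names of these regions say little about their source. How reads from repeated sequence were placed is not stated, and the part of such reads in these values was not tested.

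Gained regions were narrow. Their median width was 291 bp (95% interval of the median 278 to 306), against 465 bp for lost and 496 bp for eligible regions. The interval treats regions as independent, though all were read in the same libraries. Under 300 bp lay 355 gained regions (51.9%), against 11.2% of lost and 13.6% of eligible ones, and at least 600 bp wide were 45 (6.58%), against 25% and 35.5%. Read the other way, 111 of the 796 eligible regions under 200 bp were gained (13.9%) and 5 were lost (0.628%). Of those from 200 to 250 bp, 6.31% were gained and 1.24% lost. From 300 to 400 bp the shares were 1.82% and 1.88%, and from 600 to 1000 bp the order had turned, with 0.227% gained and 1.43% lost. From 1000 bp up it turned back, with 17 gained (0.374%) and 12 lost (0.264%).

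Width moves with level, so regions were also compared at the same mean in the group where they were higher. At a mean of 40 to 60 in that group, the median width was 228 bp for 219 gained regions, 374 bp for lost and 390 bp for eligible regions. At 100 to 200 it was 450 bp, 572 bp and 629 bp, and from 200 up it was 674 bp, 753.5 bp and 966 bp. The gained regions were thus the narrower set in each of the 5 level classes. Per 100 bp of width, the median value was 5.37 in WT and 22.5 in CSE-KO, against 18.5 and 4.72 for lost and 13.9 and 14.4 for eligible regions. How the regions were called is not given in the sources used here, and the part of region calling and of the lower CSE-KO depth in the width was not tested.

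**Figure D2:**
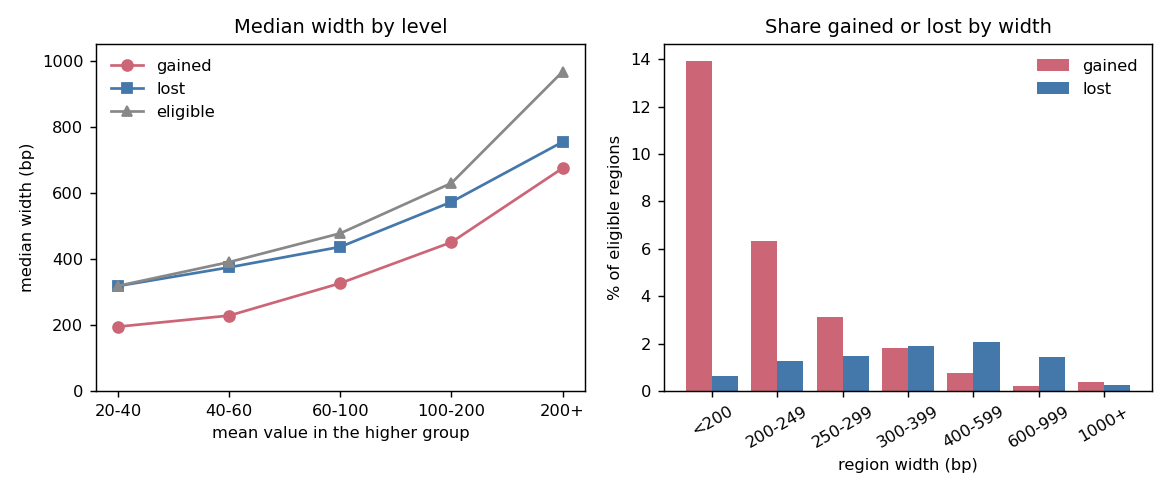
Left, median width in bp of gained, lost and eligible regions against the mean value in the group where the region is higher, in 5 classes. Right, percent of eligible regions of each width class that were gained (red) or lost (blue). The gained line lies lowest in every class, and the gained share falls from 13.9% under 200 bp to 0.227% from 600 to 1000 bp.

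Gained regions seldom lay at start sites, and at low level this was true of eligible regions as well. Distances other than the promoter share below were not matched on level. The RefSeq starts used held none on chromosome 18. Its 24 gained and 1661 eligible regions thus have no RefSeq distance and fall in no class of it. By the deposited distance, 43 of 684 (6.29%, exact 95% binomial interval 4.59% to 8.37%) had their centre within 1 kb of a start, against 4.12% of lost and 25.6% of eligible regions. This interval, too, treats regions of the same libraries as independent. The promoter share of eligible regions moves with level, and at a mean of the 6 libraries of 20 to 30 it was 6.91% of gained, 3.21% of lost and 7.7% of eligible regions, little apart for gained and eligible. At 30 to 50 these shares were 5.32%, 4.33% and 9.96%, at 50 to 100 they were 4.24%, 2.45% and 16.6%, and from 100 up they were 13.2%, 7.64% and 50.1%. The median distance to the nearest RefSeq start was 30.8 kb, against 24 kb for lost and 14.3 kb for eligible regions. Between 10 and 100 kb away lay 388 (56.7%, against 43.8% of eligible regions), and beyond 100 kb lay 131 (19.2%, against 13% of lost and 11.3% of eligible regions). Within 1 kb of a RefSeq start, 0.223% of eligible regions were gained and 0.26% lost, a near tie. At 100 to 500 kb the shares were 2.47% and 1.86%, and beyond 500 kb 2.34% and 1.7%. The span of a coding gene held 295 (43.1%), against 50.3% of lost and 59.5% of eligible regions.

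**Figure D3:**
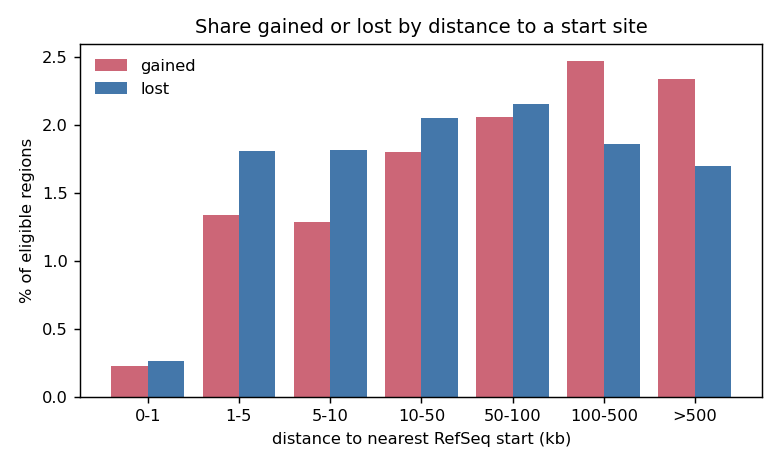
Percent of eligible regions gained (red) or lost (blue) by distance in kb to the nearest RefSeq start, in 7 classes. Chromosome 18, for which the starts used held none, is left out. Both shares are lowest within 1 kb, and the gained share is above the lost share from 100 kb on.

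The deposited table named no gene for 534 of the gained regions (78.1%), against 59.3% of eligible regions. Lost regions were alike in this, as 21.1% of them and 21.9% of gained regions had a named gene. The named genes of gained regions were coding in 69 (10.1% of the gained, 30.5% of the eligible regions), lncRNA in 29 (4.24% and 4.63%) and processed pseudogenes in 17 (2.49% and 2.01%). Of the 42 eligible regions of transcribed unprocessed pseudogenes 5 were gained, and of the 42 labelled rRNA 3 were. By deposited symbol (69) or the nearest coding start within 100 kb (363), gained regions were assigned to 388 genes, and 252 had none. The RefSeq starts used held none on chromosome 18, so its 24 gained regions could take a gene by deposited symbol only. Such a nearest gene need not be the one that a region regulates. Only 25 genes had more than 1 gained region. Of the 388 genes, 19 (4.9%) also had a lost region, which is 4.34% of the 438 genes with one.

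Among the 14 promoters that the naming rule took, Duxf3 and AW822073 led. Duxf3, a double-homeobox gene of a repeated cluster, had 6, 3 and 6 in WT against 137, 138 and 121 in CSE-KO (22.2-fold), and AW822073 beside it had 6, 6 and 1 against 101, 80 and 102 (17.9-fold). Adora1, the adenosine A1 receptor, had 5, 6 and 6 against 36, 52 and 33 (6.2-fold). All 3 promoters were close to 0 in WT, and their groups were apart by the criteria.

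Next came Stx1a (4.97-fold) and Nppa, the atrial natriuretic peptide precursor, with 11, 7 and 9 against 60, 35 and 28 (4.2-fold). Ptprn, a protein of secretory granules, had 11, 12 and 9 against 77, 44 and 16 (4-fold), and there CSE-KO replicate 3 was only just above WT. Arg2, the mitochondrial arginase, had 10, 15 and 10 against 60, 28 and 48 (3.66-fold). Ahrr, the repressor of the aryl hydrocarbon receptor, had 18, 8 and 13 against 60, 34 and 48 (3.45-fold), and Ifi205a, an interferon-inducible gene, had 6, 11 and 12 against 34, 26 and 46 (3.41-fold). In all of them the groups were apart by the choice of the regions, and at Nppa, Ptprn and Arg2 the CSE-KO libraries spread most. The rest were Sfi1, Med15 (a Mediator subunit), Rassf9, Usp24 (a deubiquitinase) and Fbxl16, at 3.52-fold to 3.94-fold.

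Several of these narrow regions lay beside a stronger region of the same gene that moved little. The gained region of Usp24, 971 bp from the start, had 34, 44 and 33 in WT against 144, 150 and 121 in CSE-KO. The region over the start itself, 107 bp away, had means of 246.7 and 251 (log2 change 0.03 ± 0.20 (SE), limma adjusted p = 0.926). Rassf9 had a gained region at 722 bp with 5, 14 and 7 against 26, 49 and 30, and a region at 138 bp with means of 65.7 and 62 (-0.08 ± 0.17, limma adjusted p = 0.795). Arg2 was gained at 30 bp, while its region at 1435 bp had means of 97 and 93.3 (-0.08 ± 0.24, limma adjusted p = 0.836). Not every stronger region was flat. That of Ptprn at 1047 bp had means of 102.7 in WT and 174 in CSE-KO (limma adjusted p = 0.0238). That of Med15 at 311 bp had means of 138 and 224.3 (limma adjusted p = 0.0434). Second regions of AW822073 and Duxf3 were gained too (15.1-fold and 11.5-fold). Of the 14 promoter genes, 10 had other regions that were not gained, 25 in all, of which 6 were called higher and 2 lower by limma, against 7.7% and 9.6% of all 58129 regions tested. Each of these 8 calls was lost in at least 3 of the 6 fits without a library. Over all regions the calls also fell in such fits, from 10057 to between 3519 and 8922. The losses thus say little about these 8 regions in particular.

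Heat-shock genes held the 3 gained regions of highest fold, and these lay at 3′ ends. Hspa1a and Hspa1b encode near-identical inducible chaperones of the HSP70 family, and reads may be shared between the copies. The region 47 bp from the 3′ end of Hspa1a, which the deposited table gives to the predicted gene Gm20481, had 12, 1 and 4 in WT against 617, 688 and 712 in CSE-KO (101-fold). A region beside it had 1, 3 and 3 against 188, 188 and 141 (52-fold). The region 274 bp from the 3′ end of Hspa1b had 6, 18 and 10 against 743, 804 and 812 (63.8-fold), and that 753 bp past the 3′ end of Hspb1, a small heat-shock protein, had 10, 9 and 6 against 243, 195 and 197 (22.8-fold). WT was close to 0 at all 4, and no CSE-KO library stood apart.

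The promoters of these genes, chosen for naming after the values were seen, differed far less between the groups. The Hspa1a promoter had 93, 94 and 110 in WT against 199, 162 and 143 in CSE-KO (log2 change 0.75 ± 0.19 (SE), limma adjusted p = 0.0367). At Hspb1 the promoter had 145, 131 and 134 against 211, 213 and 244 (0.70 ± 0.16, limma adjusted p = 0.0269). At Hspa1b it had 198, 209 and 169 against 273, 313 and 251 (0.54 ± 0.18, limma adjusted p = 0.077). In all 3 every CSE-KO value lay above every WT value, as in 21.5% of eligible regions. The call at Hspa1a held in only 1 and that at Hspb1 in 2 of the 6 fits without a library. Calls over all regions fell in those fits as well. Over all gained regions, 15 (2.19%) lay within 1 kb of the 3′ end of a coding gene, against 1.06% of lost and 2.31% of eligible regions, so 3′ ends were not more frequent among gained than among eligible regions. The 3′ ends used held none on chromosome 18, whose regions count as farther away. Others at 3′ ends were near Slc30a4, a zinc transporter, with 8, 3 and 2 against 52, 43 and 59 (9.81-fold) and Ppif, cyclophilin D of mitochondria, with 3, 3 and 5 against 23, 55 and 44 (8.93-fold).

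**Figure D4:**
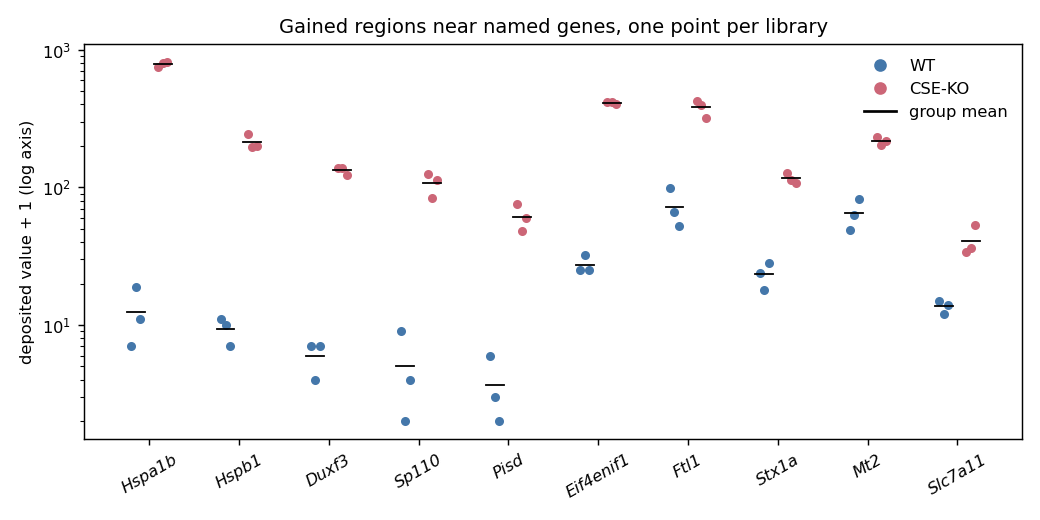
Deposited value plus 1 on a log axis for 10 gained regions named by their gene, with 1 point per library (WT blue, CSE-KO red) and a line at the mean of each group of 3. At every gene the lowest CSE-KO point lies above the highest WT point, as the criteria require, with the widest gap at Hspa1b.

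Read by gene list, most lists held few gained regions, and the share of all 58129 tested regions that were gained, 1.18%, is the level to read each list against. The lists were chosen with earlier results of these data known, so their shares are descriptions and no independent support. It is somewhat high for this use, as list regions all have a gene. A gene was assigned to 44227 of the 58129, while 252 of the 684 gained regions had none. The heat-shock and chaperone list had 104 tested regions, of which limma called 16 higher and 8 lower, with a median log2 change of 0.09, and 6 (5.77%) were gained. Beside Hspa1b and Hspb1 these were a second region of Hspb1, 8 kb from the start, at a fold of 3.3, 2 regions near Hsph1, the HSP110 chaperone, and 1 region 71.3 kb from Dnajb4, a co-chaperone. The nearer Hsph1 region had 6, 17 and 5 against 54, 44 and 51 (4.9-fold), and the Dnajb4 region had 64, 70 and 50 against 203, 199 and 212 (3.3-fold). The 101-fold and 52-fold regions by the 3′ end of Hspa1a carry the deposited name Gm20481 and are not counted in this list.

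The list of NRF2, glutathione and iron genes had 90 regions, with 13 higher, 10 lower, a median of 0.08 and 5 gained (5.56%). Ftl1, the ferritin light chain, had 98, 65 and 51 in WT against 425, 398 and 320 in CSE-KO (5.28-fold), and Cp, ceruloplasmin, had 59, 43 and 29 against 211, 253 and 148 (4.59-fold). Both hold iron or copper, and at both WT replicate 1 was the highest WT library. Mt2, a metallothionein that binds zinc and copper, had its gained region over the promoter shown above, with 48, 62 and 81 against 229, 201 and 215 (3.34-fold). The region 39.7 kb from Txnrd1, thioredoxin reductase, had 34, 31 and 32 against 124, 106 and 107 (3.4-fold). Slc7a11, the cystine importer, stood at the limit with 14, 11 and 13 against 33, 35 and 52 at 45.8 kb (3-fold).

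Hypoxia genes had 131 regions, 10 higher, 16 lower and 3 gained (2.29%). P4ha2, a collagen prolyl hydroxylase, had 3, 7 and 5 against 39, 40 and 49 at 39.3 kb (7.28-fold). Vegfa, the main endothelial growth factor, had 24, 49 and 27 against 121, 107 and 118 at 37.8 kb (3.39-fold), and Kdm3a, a histone demethylase, had 18, 21 and 27 against 80, 78 and 67 (3.3-fold).

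The next 7 lists had 1 gained region or none each, below the background share but too few to set apart from it. Genes of the ATF4 and amino acid response had 121 regions, 9 higher, 26 lower and 1 gained (0.826%), near Chac1. Endothelial identity genes had 178 regions, 12 higher, 39 lower, a median of -0.24, 3 lost and 1 gained (0.562%), 18.3 kb from the VEGF receptor gene Flt1, with 10, 14 and 8 against 52, 38 and 31. Inflammatory genes had 1 of 124 (Tnfaip3, an inhibitor of NF-kB) and cell-cycle genes 1 of 117 (Cdk6, a kinase of the cell cycle), where CSE-KO replicates spread from 18 to 69. TGF-beta and BMP genes (140 regions, 6 higher, 29 lower, 5 lost), AP-1 and immediate early genes (170, 10 higher, 21 lower, 4 lost) and interferon genes (48, 6 higher, 0 lower) had no gained region. By contrast, the list of repeat-rich multicopy loci, which earlier results of these data had named, had 11 of 23 gained (47.8%), a median of 0.93, 13 higher and 0 lower.

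Neighbouring regions were called higher more often than other regions were, though most passed no test. Within 10 kb of a gained region lay 472 regions that were not gained themselves. Of these, limma called 75 higher (15.9%) and 26 lower (5.51%) in CSE-KO, against 6.61% and 9.71% of all 57445 regions that were not gained and 6.34% and 11% of those with any other region within 10 kb. Their median log2 change was 0.22 and 65.9% were above 0, against -0.01 and 49.1%. The share called higher was 10.6% within 1 kb (47 regions), 17.3% at 1 to 5 kb (179), 15.9% at 5 to 10 kb (246), 10.2% at 10 to 50 kb, 8.66% at 50 to 100 kb and 6.62% from 100 kb to 1 Mb. Around lost regions the mirror image was larger, with 197 of 786 called lower (25.1%, against 8.45% of all regions that were not lost), 18 higher (2.29%, against 7.8%) and a median of -0.39. Leaving out WT replicate 1, 2, 3 or CSE-KO replicate 3, the neighbours called higher numbered 29, 25, 19 and 47, beside background shares of 1.87%, 1.9%, 1.71% and 5%. Those called lower fell to 4, 5 and 7 without WT replicate 1, 2 or 3, and with the replicate number as a block 40 were higher and 17 lower. In all 22 alternatives run, the share called higher was above the background, by 1.74 to 3.37 times, and the share called lower was below it.

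**Figure D5:**
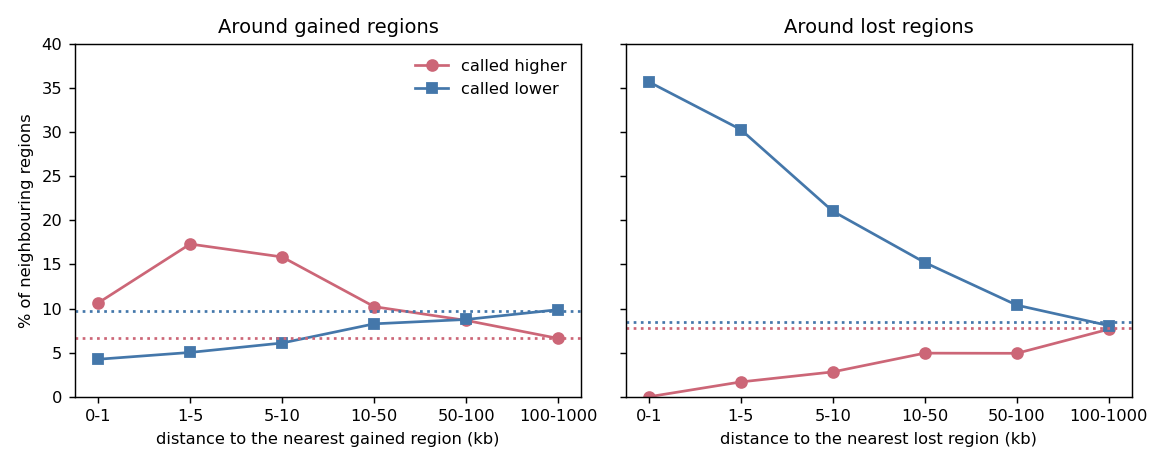
Percent of regions called higher (red) or lower (blue) by limma against distance in kb to the nearest gained region (left) or lost region (right), leaving out the gained or lost regions themselves. Dotted lines mark the shares over all regions that were not gained (left: 6.61% higher, 9.71% lower) or not lost (right: 7.8% higher, 8.45% lower). Around gained regions the higher share peaks at 17.3% at 1 to 5 kb and meets the background from 100 kb on.

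The strongest rises among these neighbours were at weak regions, which follows largely from the criteria. An autosomal region with such a rise and a mean of at least 20 would itself have been gained. The neighbour on chromosome 18 from 3118848 to 3119052, 0.914 kb from the gained region of the vomeronasal receptor gene Vmn1r238, had 0, 0 and 0 in WT against 25, 26 and 15 in CSE-KO (limma adjusted p = 0.000866). The gained region itself had 2, 4 and 6 against 101, 92 and 179 (25-fold). The neighbour near Vmn1r77, another such receptor gene, had 0, 0 and 1 against 16, 11 and 21, and that near the predicted gene Gm17019 had 2, 0 and 0 against 33, 43 and 26. The neighbour 18.3 kb from the start of Atf1, a transcription factor of the CREB family, had 6, 6 and 4 against 26, 25 and 41. At all 4 every CSE-KO value lay above every WT value, and all 4 were named for their small p.

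A different case was the promoter of Chac1, which encodes an enzyme that degrades glutathione and is a target of ATF4. It had 109, 113 and 111 in WT against 247, 247 and 246 in CSE-KO (log2 change 1.15 ± 0.15 (SE), limma adjusted p = 0.00557). The gained region of Chac1, 7.43 kb away, had 17, 4 and 6 against 29, 57 and 43 (4.4-fold). The promoter was thus well open in WT and rose evenly in every CSE-KO library, while the gained region was weak and uneven.

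Some gained regions sat beside a region that fell. Near Mef2c, a transcription factor of vascular development, the gained region had means of 10.3 and 53.3, while the region 1.03 kb away had 108, 106 and 102 in WT against 41, 34 and 46 in CSE-KO (-1.37 ± 0.17, limma adjusted p = 0.00541). Near Vim, which encodes the intermediate filament protein vimentin, the gained region had means of 10 and 34.3, and the region 9.8 kb away had 283, 286 and 259 against 80, 58 and 103 (-1.80 ± 0.23, limma adjusted p = 0.00561). Amotl1, an angiomotin of endothelial junctions, had a neighbour with 204, 225 and 203 against 103, 106 and 82, and Slco4a1, an organic anion transporter, one with 222, 231 and 215 against 118, 133 and 107. In these pairs the strong region of WT was the one that fell. Of the named neighbours with no gene, 1 on chromosome 6 had 15, 17 and 17 against 52, 54 and 38, and those on chromosomes 12 and 3 had 36, 27 and 28 against 10, 11 and 11, and 119, 108 and 112 against 36, 51 and 56. Of the 12 neighbours that the naming rule took, 11 kept their call without each library in turn, and the exception was Slco4a1, which held in 3 of 6 fits (highest limma adjusted p = 0.0609). These 12 had the smallest p with all 6 libraries, so this follows largely from their choice and does not speak for the other neighbours.

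Most gained regions stood alone. The median distance to the next gained region was 775.7 kb, against 585.5 kb for lost regions, and 589 had no other gained region within 50 kb. Within 50 kb of another lay 95 (13.9%, exact 95% binomial interval 11.4% to 16.7%), against 18.9% of lost regions. The interval treats regions as independent, which regions near each other are not, so it does not test the difference from lost regions. Within 10 kb the order was the other way, with 59 (8.63%) against 7.84%. Of the eligible regions within 10 kb of a gained one, 13% were gained themselves, against 1.44% of all, and the share declined to 5.05% within 50 kb and 1.84% within 1 Mb. Around lost regions the same shares were 7.78%, 4.31% and 1.83%.

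A few loci held long chains, in which each gained region lies within 50 kb of the next. There were 35 chains of at least 2 and 10 of at least 3, which held 45 gained regions (6.58%). Lost regions formed 65 and 11, but none of these reached 5 members, whereas 3 gained chains did and the largest had 13. Members of chains of at least 3 had a median fold of 12.2, and 31 of 45 were at least 10-fold. The other 639 had a median fold of 3.7, and 29 were at least 10-fold. Their widths did not differ much, with medians of 291 and 290 bp.

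The largest chain lay on chromosome 11 from 3100432 to 3193674 and took in 13 of the 15 regions in its span, with folds of 3.27 to 15. It ends at the promoter of Sfi1, a centrosome gene, with 281, 254 and 274 in WT against 956, 1140 and 1101 in CSE-KO, and 12 of its regions were nearest to the start of Eif4enif1 in the coding starts used. The start of Sfi1 was not among those starts, and 8 of the 12 lie inside the RefSeq span of Sfi1 (3131850 to 3203347), so the name Eif4enif1 is a matter of distance, and the repeat-rich list counts only the promoter region of Sfi1. One of them (3142130 to 3142403) had 24, 31 and 24 against 412, 418 and 400. On chromosome 1 all 5 regions between 85592042 and 85625567, by the nuclear body genes Sp110 and Sp140, were gained (12.3-fold to 21.5-fold), for example with 8, 1 and 3 against 124, 83 and 112. On chromosome 5 all 5 regions from 32726155 to 32738097 near Pisd, the phosphatidylserine decarboxylase of mitochondria, were gained (8.19-fold to 16.7-fold). All 4 regions on chromosome 10 from 58223985 to 58232206, over AW822073 and Duxf3, were gained as well (11.5-fold to 22.2-fold).

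The other chains had 3 members each. One of them holds the 3′ ends of Hspa1a and Hspa1b described above, where 3 of 6 regions were gained. Those near Scaf8 and Gm40035, 1 on chromosome 4 and 1 at the start of chromosome 16 reached 10.1-fold to 20.4-fold at their strongest region. The chain at Cav2, a caveolin of endothelial caveolae, was of another kind, with 3 of 5 regions gained at only 3.02-fold to 5.16-fold. Its strongest had 18, 16 and 8 in WT against 77, 80 and 72 in CSE-KO, 34 kb from the start.

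Regions in the first 5 Mb of the sequence, next to the centromere on mouse chromosomes, were gained more often than others. There 35 of 790 eligible regions were gained (4.43%), on 13 chromosomes, and 13 were lost (1.65%). Chromosome 11 alone gave 13 of 96, and without it the share was 3.17% (22 of 694). Of the 60 regions of at least 10-fold, 19 lay there. By chromosome, the gained share ran from 0.971% on chromosome 8 to 2.02% on chromosome 10. How reads from repeated sequence were placed is not stated in these sources, and the part of repeated sequence in the gains at these loci and chains was not tested.

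Single regions far from other gained ones made up the rest of the highest folds. Sema5a, an axon guidance gene, had 3, 4 and 4 in WT against 57, 86 and 57 in CSE-KO at 78.1 kb (14.5-fold). Onecut1, a transcription factor gene, had 2, 2 and 3 against 42, 28 and 56 at 91.2 kb (12.9-fold), Enthd1 had 3, 5 and 5 against 60, 78 and 75 (13.5-fold), and Tcp10c had 13, 21 and 6 against 172, 184 and 177 (12.5-fold). The region 25.6 kb from Ly6c2, a surface antigen gene, had 216, 188 and 189 against 2093, 2186 and 1928 (10.4-fold). In each of them the groups were apart by the criteria, and the CSE-KO values differed by no more than 2-fold. Among loci with gained neighbours or called neighbours, the strongest region near Scaf8 had 8, 9 and 14 against 203, 170 and 276 (19.2-fold), and that near Vmn1r77 had 16, 22 and 12 against 253, 234 and 244 (13.8-fold). In bulk libraries, a site open in more cells and a site more open in each cell cannot be told apart.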

How the data were processed

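ATAC-seq was made from lung endothelial cells of 3 WT (Cre-negative) and 3 CSE-KO (Cre-positive) samples, grouped by their titles. Trimmomatic 0.39, STAR 2.7.3a, Picard 3.1.1, DESeq2 1.26.0 and the build mm10 are named in the submitters' processing notes, and neither the role of each nor the region caller nor any Tn5 shift is given in the sources used here. Deposited values are treated as a score: whole numbers that look scaled and then rounded, with no header that says how. The count test planned for raw counts, edgeR, was therefore not run. Depth per library is unknown except for the estimate from missing whole numbers.

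Regions with a mean of at least 5 (58129) were tested with limma 3.58.1 (R 4.3.3), taking log2(value + 1), CSE-KO minus WT, without trend, robust or block, and Benjamini-Hochberg adjustment at 0.05. The step was tested on simulated data. Python 3.11.15 with pandas 2.3.3, numpy 2.4.6 and scipy 1.17.1 did the rest. Distances are between region centres, or from a centre to a start, and width is end minus start plus 1. A region took its deposited symbol or else the nearest RefSeq coding start within 100 kb (GRCm38.p6). The RefSeq starts used held none on chromosome 18, which thus has no RefSeq distance, 3′ end or promoter window here. Of 12574 deposited symbols, 11749 matched RefSeq, and 99.9% of those overlap it in place.

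The gained regions and gene lists were chosen with earlier results of these data known. Named regions are the 14 largest folds and up to 14 promoters (1 per gene, without predicted or clone names), the 8 highest CSE-KO means, up to 4 genes of each list, the 5 largest chains, the 6 neighbours of smallest p in each direction, and 2 regions on each side of the fold limit. Others were named after their values were seen. Samples of the same number in both groups did not deviate together (correlations -0.0105 to 0.0105), so numbers were not used as pairs. Sex chromosomes were left out of the criteria.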

Additional observations from a re-analysis of the deposited data

Results flagged for a closer look

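The sex chromosomes were not part of the gained set, but 7 X-linked and 2 Y-linked regions met all its other criteria. These are 0.779% of the 899 X regions and 28.6% of the 7 Y regions with a mean of at least 20. They were set apart because this signal lies in data outside the comparison. On the X chromosome the most abundant was near Cldn34d, a claudin-family gene, with 62, 62 and 55 in WT against 475, 614 and 490 in CSE-KO (8.69-fold). The others near a gene were by Il13ra1, Apool, Lancl3 and Klhl13, at 3.07-fold to 3.73-fold. On the Y chromosome the region from 259107 to 259318 had 2, 4 and 2 against 96, 69 and 74 (22-fold) and that from 11858087 to 11858303 had 3, 0 and 3 against 60, 40 and 36 (15.4-fold).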

How the results depend on the processing

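Of 140 values recomputed under an alternative, 45 moved, meaning a count by over 1.5 times, a width or share of regions beyond its 95% interval, or a share of values by over 1 SD. With a pseudocount of 5 in the fold, 459 regions (67.1% of the 684) were gained, 48 neighbours were higher and 15 lower and they held 6.71% of CSE-KO values. A fold limit of 2 took 2428 regions (median width 327 bp, 9.39% at promoters, 23.6% within 50 kb of another, 115 neighbours higher, 120 lower, 9.4% of values). A limit of 4 took 303 (269 bp, 18.5% within 50 kb, 37 higher, 12 lower, 6.4%). A mean of at least 10 gave 266 bp. A mean of at least 50 took 233 regions (444 bp, 43 higher, 2 lower, 6.53%). Columns scaled to equal totals left 593 gained, and all chromosomes took 693. Without the regions over 10000 the share was 1.45%. Windows of 5 and 50 kb gave 36 and 243 neighbours higher and 11 and 162 lower. Gained regions near another made up 8.63% at 10 kb and 57% at 1 Mb, and 12.9% lay within 2.5 kb of a start. Without 1 library, 634 to 785 regions were gained and 80.8% to 90.4% of the 684 were kept. Their median width was 282 to 306 bp, 5.73% to 7.66% were promoters, 13.9% to 14.8% lay within 50 kb of another, 19 to 59 neighbours were higher, 4 to 26 lower, and the share of values was 6.94% to 7.06%. In those fits 3519 to 8922 regions changed over all, against 10057 with every library, and 15448 with trend and robust on. The left-out pair of WT replicate 2 and CSE-KO replicate 1 gave 96.5% above, against 98.6% for the replicate 1 pair. With the replicate block 6013 regions changed, 40 neighbours higher and 17 lower, and no WT library correlated best with its own number in CSE-KO except replicate 3. Members outside chains of at least 3, an alternative chosen after seeing the data, had 72 neighbours higher and 26 lower. Depth limits the weak end: 1 read moves a CSE-KO value by 1.54 to 1.64.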

Other observations

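The 38189 bp gained region at the start of chromosome 9 ends 461 bp from the mouse microRNA gene Mir101c, and it was the only gained region within 1 kb of a microRNA of the RefSeq table used. The deposited table labels 8 gained regions as miRNA. The closest of these lies 42 bp from the start site it gives on chromosome 16, in Txndc11, with 42, 46 and 39 in WT against 297, 553 and 285 in CSE-KO (8.75-fold), and the next 755 bp away on chromosome 6, with 3, 3 and 0 against 31, 40 and 52 (14-fold). The window of 250 bases before the start of Igfbp3, a carrier of insulin-like growth factors, held the most CG dinucleotides of the 13 windows under gained regions, 32, and its region had 7, 13 and 12 in WT against 29, 41 and 38 in CSE-KO (3.17-fold).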
